A study of Mus musculus with 6 samples.

Results

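The KMT2C/D complex, its relatives and its partners were followed across mouse palatal shelf RNA-seq libraries, with 3 wild type libraries set against 3 in which the labels place a Kmt2d knockout in the neural crest. The group was chosen by gene symbol and holds 9 of the 23366 genes listed in the files. These are the histone methyltransferases Mll2, Mll3, Mll1, Setd1a and Setd1b, the histone demethylases Kdm6a and Kdm6b, and the cofactors Ncoa6 and Paxip1. Mll2, Mll3 and Mll1 are older symbols, now Kmt2d, Kmt2c and Kmt2a. The symbol Mll2 has also been used for Kmt2b, but the files list that gene separately as Wbp7, so Mll2 was read here as Kmt2d.

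All samples were paired palatal shelves dissected from embryos at stage E14.25. The shelves are the outgrowths of the maxillary processes that fuse to form the secondary palate, and their mesenchyme descends mostly from cranial neural crest. Wild type libraries carried the genotype label WT, with no Cre or floxed allele stated, and are numbered replicates 2, 3 and 4. Knockout libraries carried the label Kmt2dfl/fl Wnt1-Cre and are numbered replicates 1, 2 and 3. Wnt1-Cre recombines floxed alleles in the neural crest lineage and in parts of the dorsal neural tube and midbrain, so epithelium, endothelium, leukocytes and myogenic cells of the same shelves keep their Kmt2d alleles. The comparison asks how the transcripts of the complex and its paralogues stood where Kmt2d was targeted. Replicates are described by the labels as biological, but nothing says which litters they came from.

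KMT2C and KMT2D are large enzymes that add methyl groups to lysine 4 of histone H3, mainly the single methyl mark of enhancers. Each sits in a COMPASS-type assembly with shared core subunits and with a set of partners particular to this pair, among them the H3K27 demethylase KDM6A, the coactivator NCOA6 and the adaptor PAXIP1. KMT2A and the SETD1 enzymes work in sister assemblies that act more at promoters. In humans, loss of function of KMT2D or KDM6A causes Kabuki syndrome, in which facial and palatal anomalies are frequent.

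Read pairs assigned to genes ranged from 12721979 to 24916079 per library, and the lowest count of any member in any library was 703. Knockout replicate 2 stood apart. Pairs outside genes made up 47.5% of its listed pairs and 12.3% to 18.1% of those of the others, and the fold changes below, of the members and of the other genes and lists named, are therefore also given without it. The ribosomal feature Rn45s took 35.1% and 30.0% of gene counts in knockout replicates 1 and 3, against 16.2% to 20.7% in the other 4 libraries. Markers of palate mesenchyme were present throughout, for example Osr2 at 60.8 ± 10.8 CPM in the wild type and 56.1 ± 10.5 CPM in the knockout (SD, n = 3 each). CPM is a gene's read pair count scaled by the normalised library size. Markers of other cells were also present. Epithelial Epcam stood at 79.1 CPM, endothelial Pecam1 at 43.5 CPM, muscle Myog at 25.8 CPM, neuronal Elavl3 at 10.7 CPM, glial Sox10 at 10.3 CPM and leukocyte Ptprc at 2.56 CPM on average in the wild type, and among red blood cell genes Hba-a1 was listed at 0 in every library while Hbb-b1 had 18 to 336 counts and Alas2 116 to 478.

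Kmt2d, the targeted gene, showed no difference past the threshold, and its mean was the higher in the knockout. Its transcript (Mll2) stood at 197, 211 and 171 CPM in the wild type (replicates 2, 3 and 4) and at 254, 539 and 193 CPM in knockout replicates 1, 2 and 3. Knockout replicate 2 was the highest of the 6, knockout replicate 1 lay above every wild type library, and knockout replicate 3 lay inside the wild type range, so the groups overlapped. The log2 fold change of knockout over wild type was 0.77 (SE 0.35, 95% interval -0.046 to 1.58), and it did not pass the threshold of 0.05 (edgeR quasi-likelihood test, Benjamini-Hochberg adjusted p = 0.368). Without knockout replicate 2 it was 0.21 (SE 0.13, 95% interval -0.11 to 0.52; edgeR, adjusted p = 0.519). A gene-level count adds up all exons, including those outside the floxed part, and all cells of the shelf. These values therefore do not check the deletion, and in whole tissue fewer cells of a type and less RNA per cell cannot be told apart.

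The nearest relative of Kmt2d is Kmt2c (Mll3), the other catalytic subunit of this branch. It stood at 158, 160 and 141 CPM in the wild type and at 184, 346 and 159.6 CPM in the knockout libraries 1, 2 and 3. As for Kmt2d, knockout replicate 2 was far above the rest and knockout replicate 3 lay within the wild type range. The log2 fold change was 0.59 (SE 0.28; edgeR, adjusted p = 0.374), and 0.16 without knockout replicate 2 (SE 0.091; edgeR, adjusted p = 0.435).

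Kmt2a (Mll1), the founding mammalian member of the family and a maintainer of Hox gene expression, was one of 4 members whose groups did not overlap. It stood at 174, 172 and 144 CPM in the wild type and at 222, 419 and 199.98 CPM in knockout replicates 1, 2 and 3. Every knockout library thus exceeded every wild type library. The log2 fold change was 0.78 (SE 0.27, 95% interval 0.14 to 1.42; edgeR, adjusted p = 0.304), and 0.36 without knockout replicate 2 (SE 0.098, 95% interval 0.14 to 0.58; edgeR, adjusted p = 0.105). Among the 9 members it had the smallest unadjusted p in both fits.

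The SETD1 enzymes, which account for much of the trimethylation of H3K4 at active promoters, differed in how the libraries fell. Setd1b stood at 84.8, 82.9 and 80.8 CPM in the wild type and at 94.5, 136 and 96.2 CPM in knockout replicates 1, 2 and 3, with no overlap. Setd1a stood at 82.8, 84.7 and 75.8 CPM in the wild type and at 92.9, 141 and 76.1 CPM in the knockout, where replicate 3 lay within the wild type range. The log2 fold change was 0.39 for Setd1b (SE 0.15; edgeR, adjusted p = 0.327) and 0.35 for Setd1a (SE 0.21; edgeR, adjusted p = 0.468). Without knockout replicate 2 these were 0.19 (edgeR, adjusted p = 0.216) and 0.051 (edgeR, adjusted p = 0.859).

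**Figure D1:**
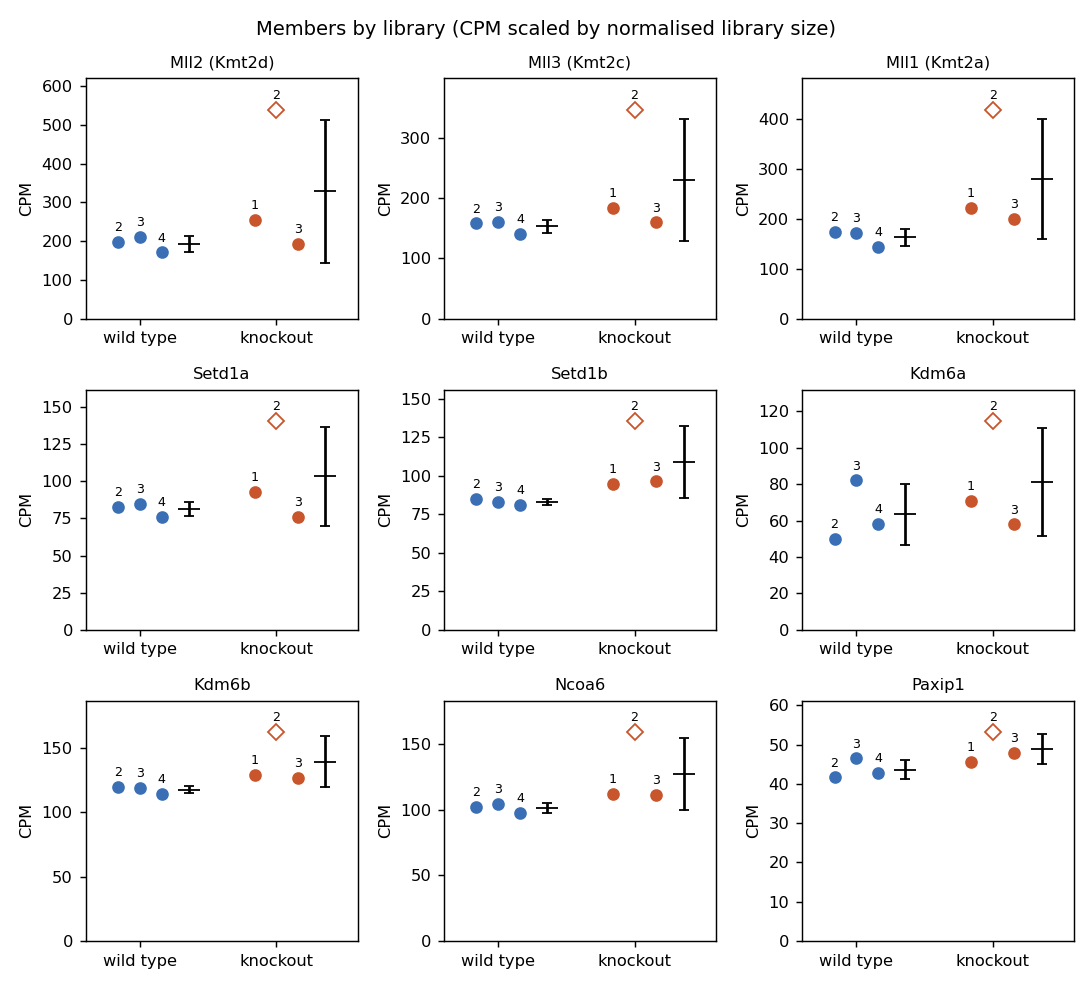
Level of each member in CPM (vertical axes, linear from 0) in the 3 wild type (blue) and 3 knockout (red) libraries, numbered by replicate, with the mean and SD of each group in black. The open diamond is knockout replicate 2, the highest of the 6 libraries for all 9 members (539 CPM for Mll2, 53.2 CPM for Paxip1).

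Among the demethylases, Kdm6b was the steadier gene. KDM6B removes methyl groups from H3K27, the mark laid down by Polycomb repressive complex 2. Kdm6b stood at 119.9, 119 and 115 CPM in the wild type and at 129, 163 and 127 CPM in knockout replicates 1, 2 and 3, and the groups did not overlap. Its log2 fold change was 0.24 (SE 0.12; edgeR, adjusted p = 0.391), and 0.11 without knockout replicate 2 (SE 0.069; edgeR, adjusted p = 0.484).

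Kdm6a varied within both groups. This X-linked gene encodes the demethylase of the KMT2C/D complex and is known to escape X inactivation, so that its second copy stays active in females. Its wild type replicates 2, 3 and 4 stood at 50.0, 82.1 and 58.1 CPM, and its knockout replicates 1, 2 and 3 at 71.0, 115 and 57.9 CPM. Wild type replicate 3 and knockout replicate 2 were the highest of their groups, and the ranges overlapped. Both libraries were also the ones with Xist, the RNA of the inactive X chromosome, at 46581 and 70941 counts, where the other 4 had at most 36. Uty, the Y-linked counterpart of Kdm6a, had 0 counts in these libraries and 498 to 937 in the other 4. Within the wild type group, Kdm6a in replicate 3 was 1.52 times the mean of the other 2 libraries, a comparison with no replicate check. Knockout replicate 2 was the highest of the 6 libraries for 34.7% of all genes tested. Kdm6a stood there at 1.78 times the mean of the other knockout libraries. Genes with transcripts of 4 to 6 kb, as that of Kdm6a (5935 nucleotides), stood there at a median of 1.09 times. The part of sex in these values was not tested.

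The fold change of Kdm6a depended on which libraries entered. The log2 fold change was 0.36 with all 6 libraries (SE 0.28; edgeR, adjusted p = 0.561), 0.016 without knockout replicate 2 (SE 0.23, 95% interval -0.56 to 0.59; edgeR, adjusted p = 0.985) and 0.59 without wild type replicate 3. Leaving out both libraries of high Xist gave 0.24 (edgeR, adjusted p = 0.504).

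**Figure D2:**
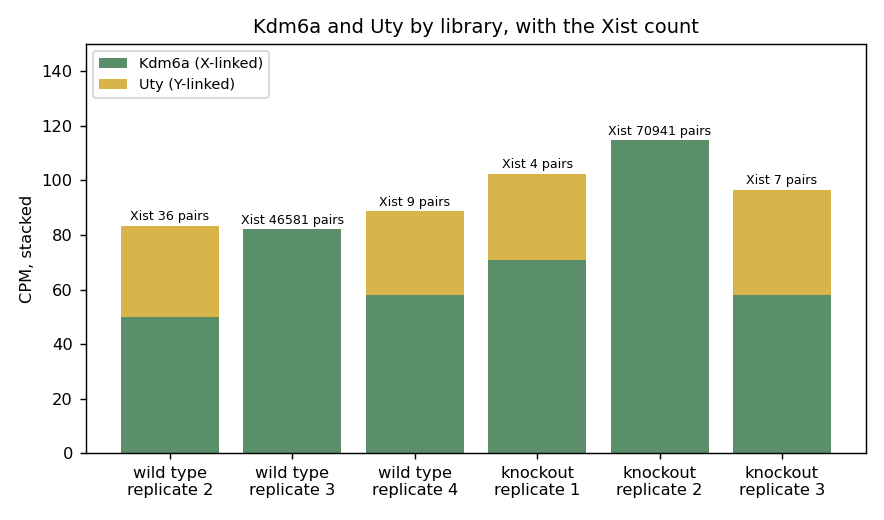
Kdm6a (green) and Uty (yellow) in CPM, stacked, in each library, with the Xist count above the bar. Uty is at 0 in wild type replicate 3 and knockout replicate 2, where Kdm6a is the highest of its group (82.1 and 115 CPM).

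Of the cofactors, Paxip1 had the smallest log2 fold change of the 9 members with all 6 libraries, whereas Ncoa6 lay among the others. NCOA6 is a nuclear receptor coactivator found in the KMT2C/D assemblies, and PAXIP1 is a BRCT-domain adaptor that also acts in DNA damage responses. Ncoa6 stood at 102, 105 and 97.5 CPM in the wild type and at 112, 159 and 111 CPM in knockout replicates 1, 2 and 3, with no overlap and a log2 fold change of 0.33 (SE 0.15; edgeR, adjusted p = 0.374). Paxip1 stood at 41.6, 46.5 and 42.8 CPM and at 45.6, 53.2 and 47.8 CPM in the same order, with overlapping groups and a log2 fold change of 0.16 (SE 0.11; edgeR, adjusted p = 0.492). Without knockout replicate 2 the values were 0.13 for Ncoa6 (edgeR, adjusted p = 0.419) and 0.089 for Paxip1 (edgeR, adjusted p = 0.676).

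Of the 9 members, 9 were tested and 0 passed the threshold in either direction, where 0.534% of the 14233 genes tested passed (76 genes, of which 14 higher, or 0.0984%, and 62 lower, or 0.436%). At an unadjusted p under 0.05 there were 2 members, Mll1 and Setd1b, against 14.20% of all genes tested. DESeq2 and limma voom also gave 0 members past the threshold, with 4 and 2 members at an unadjusted p under 0.05. Over all genes these methods had 2200 and 1844 at that level, beside 2021 with edgeR. All 9 log2 fold changes were positive, with a median of 0.36, against 51.5% positive and a median of 0.011 over all genes tested. The groups did not overlap, with the knockout higher, for 4 of 9 members, where this held for 12.3% of all genes tested and 23.5% did not overlap in either direction. Without knockout replicate 2, 0 members passed while 2.12% of 14450 genes did (0.547% higher and 1.57% lower), and the median of the 9 was 0.13 against 0.016 over all genes. The same 4 members did not overlap in that fit, where 18.4% of all genes tested had the knockout higher without overlap and 34.3% did not overlap in either direction. With single libraries left out, the members' median was lowest, at 0.13, in the fit lacking knockout replicate 2 and highest, at 0.52, in the fit lacking knockout replicate 3.

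**Figure D3:**
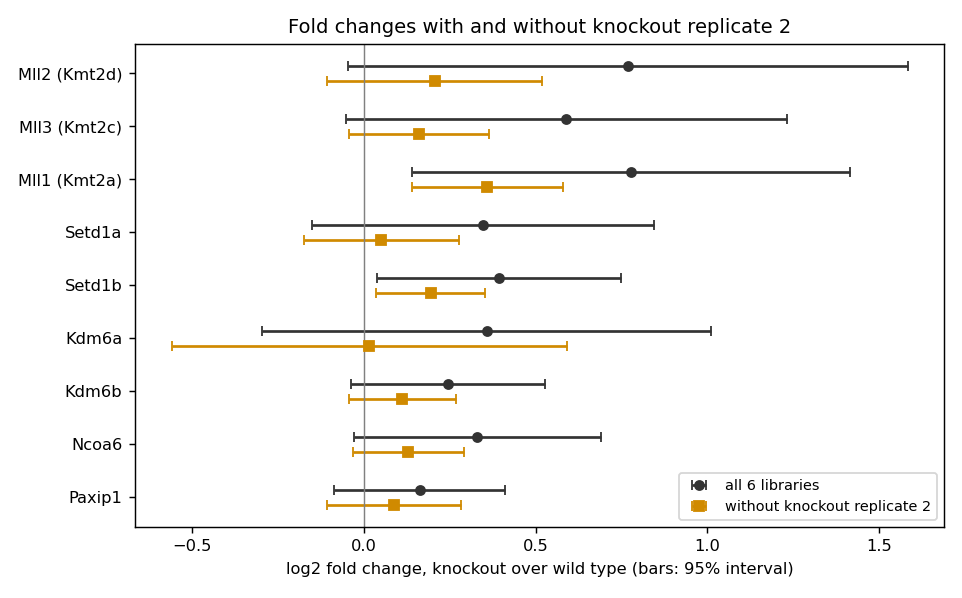
Log2 fold change of knockout over wild type (horizontal axis) for each member, with its 95% interval, from all 6 libraries (black circles) and without knockout replicate 2 (orange squares). All estimates lie above 0, those without the library lie closer to it, and only the intervals of Mll1 and Setd1b leave 0 out.

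Single libraries contributed unequally to these differences. Knockout replicate 2 was the highest of the 6 libraries for 9 of 9 members, and for 34.7% of all genes tested. It exceeded the mean of the other knockout libraries by 2.41 times for Mll2, 2.02 times for Mll3 and 1.98 times for Mll1, but by 1.14 times for Paxip1 and 1.27 times for Kdm6b. In knockout replicate 1, 7 members lay above every wild type library, as did 35.5% of all genes tested. In knockout replicate 3, 5 members did, as did 35.0% of all genes tested. The members' summed level was 925 to 1063 CPM in the wild type and 1206, 2070 and 1069 CPM in knockout replicates 1, 2 and 3.

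Transcript length moved with these values. The 3 KMT2 members have the longest annotated transcripts of the group, 19823 nucleotides for Mll2, 16470 for Mll1 and 14967 for Mll3, whereas those of the other 6 run from 5850 (Paxip1) to 8857 (Setd1b). Over all genes tested, the median log2 fold change was -0.097 for the 2746 genes with transcripts under 2 kb, 0.14 for the 1267 genes of 6 to 8 kb and 0.38 for the 172 genes of 12 kb and over. Mll1 and Mll2 lay above the upper quartile of that longest class (0.61) and Mll3, at 0.59, just under it. Shorter members also exceeded the upper quartile of their own class, namely Kdm6a (0.36 against 0.26), Setd1a (0.35 against 0.32) and Ncoa6 (0.33 against 0.32). Setd1b, Kdm6b and Paxip1 lay below theirs. In knockout replicate 2, genes of 12 kb and over stood at a median of 1.61 times the mean of the other knockout libraries, and genes under 2 kb at 0.756 times.

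Without knockout replicate 2 the medians of the classes under 2 kb, of 6 to 8 kb and of 12 kb and over were 0.0092, 0.032 and 0.097. Mll1 (0.36) still lay above the upper quartile of its class (0.23) while Mll2 (0.21) and Mll3 (0.16) lay below it. The shorter members all lay below the upper quartile of their own class in that fit. In a fit that removed each library's trend with transcript length and GC content, the log2 fold change was 0.40 for Mll2 (edgeR, adjusted p = 0.229), 0.42 for Mll1 (edgeR, adjusted p = 0.158) and 0.21 for Mll3 (edgeR, adjusted p = 0.412). Setd1a and Kdm6b, at 0.37 and 0.29, were not lower with the trends removed than in the main fit. Setd1b (0.36), Ncoa6 (0.22), Kdm6a (0.16) and Paxip1 (0.11) were lower. With the trends removed, 5 members had an unadjusted p under 0.05, as did 2233 of all genes, beside 2 and 2021 in the main fit. The part of RNA quality in the members' differences was not tested.

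**Figure D4:**
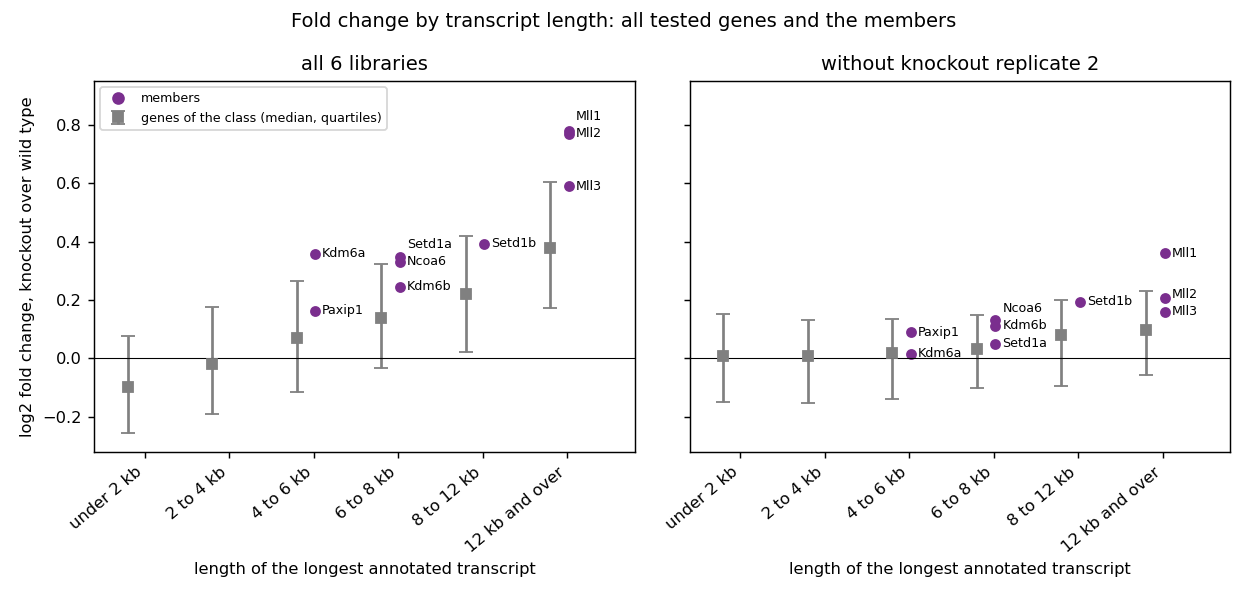
Log2 fold change of knockout over wild type (vertical axis) by length of the longest annotated transcript (horizontal axis), from all 6 libraries (left) and without knockout replicate 2 (right). Grey squares and bars are the median and quartiles of all tested genes in a class, rising from -0.097 to 0.38 on the left and from 0.0092 to 0.097 on the right, and purple points are the 9 members.

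Ratios between members cancel library size and were compared after their values were seen. The count of Mll2 was 1.13, 1.23 and 1.18 times that of Mll1 in the wild type (replicates 2, 3 and 4) and 1.14, 1.29 and 0.967 times in knockout replicates 1, 2 and 3. The count of Mll2 was 1.25, 1.32 and 1.21 times that of Mll3 in the wild type and 1.38, 1.56 and 1.21 times in the knockout. Both ratios were highest in knockout replicate 2 and lowest in knockout replicate 3. Against Kmt2b (Wbp7), the ratio of Mll2 was 2.13 to 2.26 in the wild type and 2.40, 3.49 and 1.94 in knockout replicates 1, 2 and 3. In 5 such pairs, which included Setd1a to Setd1b and Kdm6a to Kdm6b, two-sided exact permutation tests gave p = 0.4 to 0.9 (0.9 after Benjamini-Hochberg adjustment over the 5), where 3 against 3 libraries cannot go below 0.1.

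Compared per length of the longest annotated transcript, the members' wild type means ran from 7.46 to 17.7 CPM per kb. In the wild type, Kdm6b was the highest at 17.7 ± 0.417 CPM per kb, followed by Ncoa6 at 14.28 ± 0.511 and Setd1a at 12.5 ± 0.724 CPM per kb (SD, n = 3 each). Kdm6a at 10.7 ± 2.81, Mll3 at 10.2 ± 0.708, Mll1 at 9.93 ± 1.02, Mll2 at 9.73 ± 1.04 and Setd1b at 9.35 ± 0.227 CPM per kb followed, and Paxip1 was the lowest at 7.46 ± 0.430 (SD, n = 3 each). Neighbours from Setd1a to Setd1b in this order overlapped in their wild type libraries, while Kdm6b, Ncoa6 and Paxip1 did not overlap with their neighbours. Further down the order, Kdm6a in wild type replicate 3 (13.83 CPM per kb) lay above Ncoa6 in wild type replicate 4 (13.73 CPM per kb). In the knockout the order by mean was Kdm6b, Ncoa6, Mll1, Mll2, Setd1a, Mll3, Kdm6a, Setd1b and Paxip1. In knockout replicate 2 Mll2 reached 27.2 CPM per kb, the highest value of any member there. Without that library the knockout order was Kdm6b, Ncoa6, Setd1a, Mll1, Mll3, Mll2, Kdm6a, Setd1b and Paxip1, with Setd1a at 13.0, Mll1 at 12.8, Mll3 at 11.5 and Mll2 at 11.3 CPM per kb.

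The core subunits shared by all COMPASS assemblies had fold changes near 0. Wdr5, the subunit that binds the catalytic enzyme and the histone tail, stood at 67.9 ± 0.681 CPM in the wild type and 67.1 ± 9.46 CPM in the knockout (SD, n = 3 each), a log2 fold change of -0.015 (95% interval -0.30 to 0.27). The other core subunits had log2 fold changes of 0.073 for Rbbp5, -0.080 for Ash2l and -0.10 for Dpy30 (edgeR, adjusted p = 0.742 to 0.780). With knockout replicate 2 left out, the log2 fold change of Wdr5 was 0.084, with every knockout library above the wild type (edgeR, adjusted p = 0.648), and those of Rbbp5, Ash2l and Dpy30 were 0.013, 0.0036 and 0.0084. Their transcripts are 789 to 3702 nucleotides long, shorter than those of any member. Of the 16 genes listed as COMPASS subunits and other paralogues, 0 passed the threshold (2 at an unadjusted p under 0.05), 11 were positive and the median log2 fold change was 0.062, or 0.069 without knockout replicate 2. The 16 include Y-linked Uty (0.14, or 0.70 without knockout replicate 2), which had 0 counts in wild type replicate 3 and knockout replicate 2. The smallest p values were those of the paralogues Mll5 (Kmt2e), with a log2 fold change of 0.55 (SE 0.18; edgeR, adjusted p = 0.278), and Wbp7 (Kmt2b), with 0.46 (SE 0.18; edgeR, adjusted p = 0.33). Without knockout replicate 2 the log2 fold change was 0.31 for Mll5 (edgeR, adjusted p = 0.0727) and 0.22 for Wbp7 (edgeR, adjusted p = 0.254).

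Genes of the enzymes that oppose the members were also counted. Of 6 H3K4 demethylases, 0 passed (1 at an unadjusted p under 0.05) and the median log2 fold change was 0.14, below the 0.36 of the members, but without knockout replicate 2 it was 0.12 beside 0.13 for the members. The 6 include X-linked Kdm5c (0.15, or -0.019 without knockout replicate 2) and Y-linked Kdm5d (0.25, or 0.82). Kdm5d had 0 counts in wild type replicate 3 and knockout replicate 2, the libraries with high Xist counts, where Kdm5c was the highest of its group. Kdm5a had a log2 fold change of 0.28 (SE 0.10; edgeR, adjusted p = 0.323) and Kdm5b one of 0.13 (SE 0.097; edgeR, adjusted p = 0.549), and without knockout replicate 2 these were 0.19 and 0.15. Of 11 genes of Polycomb repressive complex 2, which writes the H3K27 methylation that Kdm6a and Kdm6b remove, 0 passed and the median was 0.087, or -0.0042 without knockout replicate 2. Phf1, an accessory subunit that reads H3K36 methylation, had a log2 fold change of 0.54 (SE 0.24; edgeR, adjusted p = 0.355), and the histone chaperone Rbbp7 one of -0.27 (SE 0.13; edgeR, adjusted p = 0.372). In the fit lacking knockout replicate 2 these were 0.23 for Phf1 (edgeR, adjusted p = 0.4997) and -0.17 for Rbbp7 (edgeR, adjusted p = 0.251).

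Enhancer coactivators and chromatin remodellers, which act at the same elements as KMT2D, had a median close to that of the members. Of 12 such genes 0 passed (4 at an unadjusted p under 0.05), 11 were positive and the median log2 fold change was 0.40, or 0.10 without knockout replicate 2. Chd7, the remodeller whose human counterpart is mutated in CHARGE syndrome, stood at 39.4 ± 0.409 CPM in the wild type and 56.7 ± 9.20 CPM in the knockout (SD, n = 3 each). Its log2 fold change was 0.53 (SE 0.13; edgeR, adjusted p = 0.19), and 0.38 without knockout replicate 2 (edgeR, adjusted p = 0.0532). Crebbp, a histone acetyltransferase of enhancers, had a log2 fold change of 0.51 (SE 0.18; edgeR, adjusted p = 0.307), and 0.26 without knockout replicate 2. Both transcripts are also long, at 10216 and 10820 nucleotides.

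**Figure D5:**
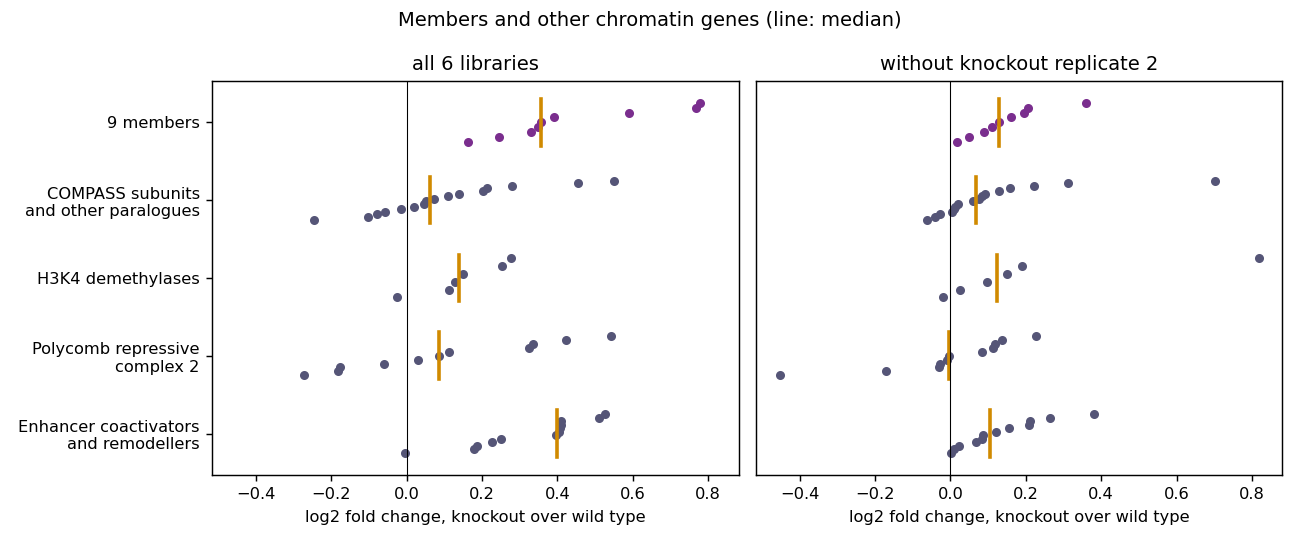
Log2 fold change of knockout over wild type (horizontal axis) for the genes of each list, 1 point per gene, from all 6 libraries (left) and without knockout replicate 2 (right), with the list's median as an orange line. The medians of the 9 members and of the coactivators move from 0.36 and 0.40 to 0.13 and 0.10, while that of the COMPASS subunits is 0.062 and 0.069.

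Markers of cell types outside the Wnt1-Cre lineage differed by type. The sums of the epithelial and endothelial markers were lower in each knockout library than in any wild type library. Those of leukocytes, skeletal muscle and red blood cells overlapped between the groups. The 5 epithelial markers summed to 393 to 498 CPM in the wild type and to 364, 189 and 366 CPM in knockout replicates 1, 2 and 3, and 3 of 5 were lower without overlap, where 11.2% of all genes tested were. Their median log2 fold change was -0.66, or -0.39 without knockout replicate 2. The 4 endothelial markers summed to 209 to 230 CPM in the wild type and to 191, 171 and 183 CPM in the knockout, with a median log2 fold change of -0.30, or -0.22 without knockout replicate 2. The 4 leukocyte markers summed to 20.8 to 22.9 CPM in the wild type and to 20.5, 23.0 and 18.5 CPM in the knockout, with 2 of 4 positive and a median of 0.22, or 0.013 without knockout replicate 2. The 4 skeletal muscle markers summed to 91.2 to 194 CPM in the wild type and to 107, 249 and 96.6 CPM in the knockout, with 3 of 4 positive and a median of 0.077, or 0 of 4 positive and -0.42 without knockout replicate 2. Epithelial Epcam had a log2 fold change of -0.57 (edgeR, adjusted p = 0.323) and endothelial Pecam1 one of -0.29 (edgeR, adjusted p = 0.317), and without knockout replicate 2 these were -0.37 and -0.25. The part of cell composition in the members' values was not tested.

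The genes whose profile over the 6 libraries was most like that of Mll2 were sought among 9537 other genes with a mean of at least 10 CPM. Likeness was the root mean square difference in log2 CPM after centring each gene on its own mean. The 5 nearest were Mdm4, a regulator of p53 (0.057), Med12l, a Mediator subunit paralogue (0.059), Zc3h7a, a zinc finger protein (0.063), Brwd1, a bromodomain protein (0.065), and Ap4e1, a subunit of an adaptor complex (0.070). All 5 stood highest in knockout replicate 2, at 2.20 to 2.74 times the mean of the other knockout libraries. This follows from their choice by likeness to Mll2, which stood there at 2.41 times. Of the members, Mll3 (0.13) and Mll1 (0.13) were the nearest to Mll2, ranked 72 and 74 of the 14232 other genes tested, and Paxip1 (0.46) the farthest, ranked 3714.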

How the data were processed

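The authors deposited 1 file of raw counts for each library, giving read pairs by gene symbol with no scaling or pooling. The submitters' processing notes name TopHat2, SAMtools, HTSeq and mm9 but no versions. Annotation, strand setting and multiple-alignment setting were not given in the sources used here. Per the labels' protocols, libraries came from a stranded mRNA kit and reads were paired, 25 bp each. The 5 category lines of the counting program (pairs outside genes 12.3% to 47.5%, not unique 18.1% to 30.3%, ambiguous 0.168% to 0.439%) stayed out of library sizes and tests. Libraries of a group differed beyond sampling noise (chi-square per degree of freedom 11.0 to 153), so each counted as 1 replicate. The edgeR p-values set the difference between the groups against the spread between libraries within a group.

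Counts were filtered with filterByExpr, scaled with TMM factors and compared over all genes by the robust quasi-likelihood test of edgeR 4.0.16 in R 4.3.3, with Benjamini-Hochberg adjustment at 0.05. Standard errors are the log2 fold change divided by the square root of the test statistic. Alternatives used DESeq2 1.42.0 and limma 3.58.1. The code was tested on simulated data. Transcript length and GC content came from the longest GENCODE M21 transcript (GRCm38) for 98.5% of listed genes, so no coordinates are printed. In that annotation, other genes share exon bases with Kdm6b, Mll1, Mll3 and Setd1a, and their reads cannot be told apart here. The largest overlap, 3523 bases, is that of Setd1a with the protein-coding gene Gm49388 on the same strand. The others are 29 to 378 bases, not on the same strand.

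The members and lists were chosen with earlier results of these data known. All members were named. From each of the 4 chromatin lists the genes past the threshold, or else the 2 with the smallest p, were named, with Wbp7 and the core subunits. The first marker of each cell type and the 5 genes most like Mll2 were also named. Calls in the other lists under the replicate block are not reported here.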

Additional observations from a re-analysis of the deposited data

Results flagged for a closer look

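Pairs that were not counted to genes exceeded the wild type level in the knockout libraries. Outside annotated genes fell 18.1% of the listed pairs in knockout replicate 1 and 47.5% in knockout replicate 2, above the highest wild type share of 15.4%. More than 1 alignment was recorded for 30.3% of the pairs in knockout replicate 1 and for 27.7% in knockout replicate 3, above the highest wild type share of 20.99%. The members' values in knockout replicate 2 stand beside the first of these shares, and the part of that library's uncounted pairs in them was not tested.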

How the results depend on the processing

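All 9 members kept a positive log2 fold change under each of the 16 alternatives, and 0 passed the threshold in any of them. The number of members at an unadjusted p under 0.05 ran from 0 (without wild type replicate 4) to 7 (without knockout replicate 3). The count over all genes moved with it, at 1093 and 3006 in these fits beside 2021 with all 6 libraries. Leaving out 1 library at a time gave 0.21 to 1.04 for Mll2 (edgeR, adjusted p = 0.168 to 0.718), and the fit with the replicate number as a block gave 0.66. The members' median was 0.19 without wild type replicate 3 and knockout replicate 2, 0.29 with library trends removed and 0.36 with the replicate block. Over all genes, the count past the threshold of 76 became 486 with DESeq2, 298 with the replicate block, 145 without wild type replicate 3 and knockout replicate 2, and 0 to 306 with single libraries left out. Both fits with 0 genes (edgeR), lacking wild type replicate 2 or 3, had 1102 and 1117 genes whose unadjusted p was under 0.05. Of the 81 genes of the 12 other lists, 0 passed (15 at an unadjusted p under 0.05), but 3 did with DESeq2 (Cdh1, Krt8 and Chd7) and 0 to 1 with single libraries left out (Cdh1, lower, without knockout replicate 2). The groups share only the replicate numbers 2 and 3, and the deviations of same-numbered libraries correlated across genes at 0.24 and -0.15, so the numbers were not taken to pair the samples. The earlier quasi-likelihood method was added after seeing the data. With 3 libraries a group and a wide spread in the knockout, the intervals for Mll2 reach from -0.046 to 1.58 on the log2 scale, or from -0.11 to 0.52 without knockout replicate 2.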

Other observations

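The sum of Kdm6a and its Y-linked counterpart Uty was more even than Kdm6a alone, a description chosen after the values were seen. In CPM, not scaled by length, the wild type replicates 2, 3 and 4 had sums of 83.4, 82.1 and 88.7, and the knockout replicates 1, 2 and 3 had 102, 115 and 96.7. The wild type libraries spread over 84.7 ± 3.50 CPM (SD, n = 3), whereas Kdm6a alone spread over 63.4 ± 16.7 CPM. The groups did not overlap in the sum (104.7 ± 9.26 CPM for the knockout). Among all genes tested, 12.3% had the knockout higher without overlap and 23.5% did not overlap in either direction. A two-sided exact permutation test gave p = 0.1 (0.1 after Benjamini-Hochberg adjustment over 2 sums), the smallest value that 3 against 3 libraries allow. Groups that do not overlap always give this value, so the test adds nothing to the sums themselves.

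The H3K4 demethylase Kdm5c, another X-linked gene known to escape X inactivation, and its Y-linked counterpart Kdm5d showed the same arrangement. Kdm5c was highest in the libraries with high Xist counts, at 1.42 times the mean of the other wild type libraries and 1.35 times that of the other knockout libraries. Knockout replicate 2 was, however, the highest of the 6 libraries for 34.7% of all genes tested. Genes of 6 to 8 kb, the class of Kdm5c (6449 nucleotides), stood there at a median of 1.21 times the mean of the other knockout libraries. The sum of Kdm5c and Kdm5d was 174, 186 and 168 CPM in the wild type and 193, 202 and 198 CPM in the knockout (p = 0.1 by a two-sided exact permutation test for 3 against 3 libraries).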
